A study of Mus musculus with 4 samples.

Results

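A group of 8 genes that are used as markers of fibroblasts of loose connective tissue and of progenitor-like fibroblasts were followed through the cells of mouse Achilles tendon: Cd34, Ly6a, Scara5, Dpt, Fndc1, Serpinf1, Apod and Sfrp2. They are 8 of the 15746 genes in the count table, and all 8 were found there. They were chosen on that use as markers and on their level (UMIs) in the population that the authors named tendon fibroblasts 2, so their levels in that population are a description, and no test of them against tendon fibroblasts 1 is reported. All animals were male C57Bl/6 mice aged 6 weeks with no treatment named, and it is not given whether 1 mouse or pooled mice went into a library. Single cells were sequenced in 4 libraries of this kind, in which every transcript molecule is counted once through a unique molecular identifier (UMI). The authors' annotation gave each of the 1191 cells 1 of 13 population names.

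Tendon consists of densely packed collagen made by tendon fibroblasts, surrounded and divided by looser sheets that carry vessels and nerves. Fibroblasts of such loose tissue in many organs carry Cd34, a cell surface sialomucin that is also found on endothelial cells and blood progenitors, and Ly6a, which encodes the surface antigen Sca-1 and is likewise found on endothelium. Scara5 encodes a scavenger receptor for ferritin, Dpt the matrix protein dermatopontin, Fndc1 a protein with fibronectin type III domains, Serpinf1 the secreted pigment epithelium-derived factor, Apod the lipid carrier apolipoprotein D and Sfrp2 a secreted Wnt modulator.

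All 8 are protein-coding genes. On the GRCm38 assembly, GENCODE M21 places Dpt on chromosome 1 from 164796644 to 164824266 and Cd34 on the same chromosome from 194938819 to 194961279. Sfrp2 lies on chromosome 3 from 83766321 to 83774316 and Serpinf1 on chromosome 11 from 75409769 to 75422701. Scara5 lies on chromosome 14 from 65666403 to 65764826 and Ly6a on chromosome 15 from 74994877 to 74998031. Apod lies on chromosome 16 from 31296192 to 31314808 and Fndc1 on chromosome 17 from 7738569 to 7827302. Only Dpt and Cd34 share a chromosome, and they do not neighbour each other.

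RefSeq promoters of the build GRCm38.p6, from 250 bases before to 50 bases after each start site, were found for 6 of the 8 genes. Those of Dpt, Cd34, Sfrp2 and Serpinf1 are shown because these genes had different distributions over the populations, described below: Dpt in several fibroblast populations, Cd34 in fibroblasts and endothelium, Sfrp2 in tendon fibroblasts 2, and Serpinf1 in all 3 tendon fibroblast populations. Letters run 5′ to 3′ on the strand of the gene, and capitals mark a match to a searched motif on either strand. The windows are chr1:164796413-164796712 (plus strand), chr1:194938571-194938870 (plus strand), chr3:83766071-83766370 (plus strand) and chr11:75422574-75422873 (minus strand), in this order.
Dpt: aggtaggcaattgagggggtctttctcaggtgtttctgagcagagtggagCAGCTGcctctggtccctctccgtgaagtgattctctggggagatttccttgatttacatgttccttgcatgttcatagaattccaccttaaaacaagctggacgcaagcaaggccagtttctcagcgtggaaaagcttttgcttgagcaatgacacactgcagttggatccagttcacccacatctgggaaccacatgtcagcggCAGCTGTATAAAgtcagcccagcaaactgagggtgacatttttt
Cd34: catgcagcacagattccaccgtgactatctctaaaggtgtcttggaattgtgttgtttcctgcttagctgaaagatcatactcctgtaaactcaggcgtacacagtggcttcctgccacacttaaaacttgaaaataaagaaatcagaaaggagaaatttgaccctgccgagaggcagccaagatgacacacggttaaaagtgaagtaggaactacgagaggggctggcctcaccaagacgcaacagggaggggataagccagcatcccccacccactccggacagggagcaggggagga
Sfrp2: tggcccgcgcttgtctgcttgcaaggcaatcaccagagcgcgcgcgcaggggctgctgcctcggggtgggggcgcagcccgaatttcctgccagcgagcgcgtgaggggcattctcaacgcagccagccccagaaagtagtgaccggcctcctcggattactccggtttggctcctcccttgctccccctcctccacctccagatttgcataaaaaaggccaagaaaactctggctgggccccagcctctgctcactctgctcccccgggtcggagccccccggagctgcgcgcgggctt
Serpinf1: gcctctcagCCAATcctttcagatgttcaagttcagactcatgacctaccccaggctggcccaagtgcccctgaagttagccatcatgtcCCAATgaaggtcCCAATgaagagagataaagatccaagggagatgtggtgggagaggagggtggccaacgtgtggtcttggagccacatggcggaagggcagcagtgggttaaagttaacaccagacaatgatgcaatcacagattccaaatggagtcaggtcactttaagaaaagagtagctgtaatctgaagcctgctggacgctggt

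The motifs searched on both strands were the TATA box (TATAAA), an E-box (CAGCTG), the CCAAT box (CCAAT itself), the GC box (GGGCGG), the AP1 site (TGANTCA) and the TEAD site (GGAATG), none of which contains another. They were present in 13.6%, 16.3%, 37.4%, 35.7%, 7.81% and 14.7% of the 32851 promoters of this length. The Dpt window held CAGCTG at bases 51 and 257 and, directly after the second of these, TATAAA at base 263. The Serpinf1 window held CCAAT at bases 10, 91 and 103. The Cd34 and Sfrp2 windows held none of the 6 motifs. Of the windows not shown, that of Apod held CAGCTG at base 285 and that of Fndc1 held TATAAA at base 32 and GGGCGG at base 163. The motif matches shared by members were thus CAGCTG in Dpt and Apod and TATAAA in Dpt and Fndc1, which are descriptions of the letters and not of bound sites. Counted from the start site, TATAAA begins at 12 in Dpt and at -219 in Fndc1, where negative positions lie before the start.

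Depth per cell was similar in the 4 libraries, which held 580, 246, 256 and 109 cells with medians between 7440 and 8824 UMIs per cell, and no cell barcode was shared between them. Tendon fibroblasts 2 comprised 156 cells, of which 67, 2, 78 and 9 came from libraries 1, 2, 3 and 4. A level is given here as CPM, the UMIs of the gene per 1000000 UMIs in the summed cells of a population in a library, and only libraries with 5 or more cells of that population enter a mean. Library 2 therefore enters no mean of tendon fibroblasts 2, and tendon fibroblasts 3 rest on the 45 cells of library 1. The labelled cell types were checked by markers. In tendon fibroblasts 2, 6 tendon fibroblast markers summed to between 42342 and 119958 CPM. The 6 endothelial markers summed to between 16.1 and 17.4 CPM there, with Tie1 at 0, against 5793 to 6703 CPM in endothelial cells 1. The 4 leukocyte markers summed to between 6.97 and 14.1 CPM in tendon fibroblasts 2, with Ptprc at 0.

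The surface genes Cd34 and Ly6a had high levels in 2 kinds of cells, tendon fibroblasts 2 and 3 on the one side and endothelial cells 1 and 2 on the other. In tendon fibroblasts 2, Cd34 stood at 593, 418 and 620 CPM in libraries 1, 3 and 4, with a mean of 544 ± 109 CPM (SD, n = 3 libraries). In tendon fibroblasts 1 it stood at 7.96, 0, 2.70 and 22.7 CPM in libraries 1 to 4. These 2 groups of libraries did not overlap, but the gene was chosen for its level in tendon fibroblasts 2, so this is a description. Cd34 reached a mean of 566 ± 159 CPM in endothelial cells 2 and 462 ± 24.5 CPM in endothelial cells 1 (SD, n = 4 libraries each), and 523 CPM in tendon fibroblasts 3 of library 1. The order of the highest 4 populations is not set by these data: tendon fibroblasts 2 and 3 and endothelial cells 1 overlapped the range of endothelial cells 2, 348 to 716 CPM. Bursal fibroblasts, from the fluid-filled pad beside the tendon, and pericytes, the contractile cells around small vessels, came next at 76.3 ± 32.4 (SD, n = 3) and 75.3 ± 63.2 CPM (SD, n = 4). Of the 57 Cd34 UMIs of pericytes, only 2 were in the 85 cells without 2 or more UMIs of another cell class's markers. Nerve cells 1 and 3 had no Cd34 UMI, which allows levels of up to 10.0 and 21.6 CPM with a floor of 3 counts over each population.

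Ly6a was distributed in a similar way but with more in bursal fibroblasts. It stood at 1171, 817 and 1184 CPM in tendon fibroblasts 2 of libraries 1, 3 and 4, with a mean of 1057 ± 208 CPM (SD, n = 3). In tendon fibroblasts 1 it stood at 126, 7.81, 83.6 and 56.6 CPM in libraries 1 to 4, all below the lowest library of tendon fibroblasts 2. The highest mean was that of endothelial cells 1, 1319 ± 332 CPM (SD, n = 4), followed by 1063 CPM in tendon fibroblasts 3 of library 1. Bursal fibroblasts had 788 ± 257 CPM (SD, n = 3), endothelial cells 2 had 656 ± 242 CPM and pericytes 211 ± 112 CPM (SD, n = 4 each). From endothelial cells 1 down to endothelial cells 2, neighbours in this order overlapped within their spread. Of the 218 Ly6a UMIs of pericytes, only 4 were in the 85 cells without 2 or more UMIs of another cell class's markers. Endothelial cells 3 had 1 Ly6a UMI among 36 cells, unlike the other endothelial populations, and red blood cells had 0.

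Of all Cd34 UMIs in the table (2546), tendon fibroblasts 2 and endothelial cells 1 each held 35.4% and endothelial cells 2 held 16.7%. Of all Ly6a UMIs (5956), endothelial cells 1 held 39.3% and tendon fibroblasts 2 held 29.6%. These shares differed between libraries: tendon fibroblasts 2 held 71.1% of Cd34 UMIs in library 3 and 0.432% in library 2, and endothelial cells 1 held 17.4% and 50.8%. Over the libraries together, the other 6 genes had nearly all of their UMIs outside the vessel populations. In library 2, however, pericytes held 62.5% of the Dpt UMIs, with 20 UMIs.

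**Figure D1:**
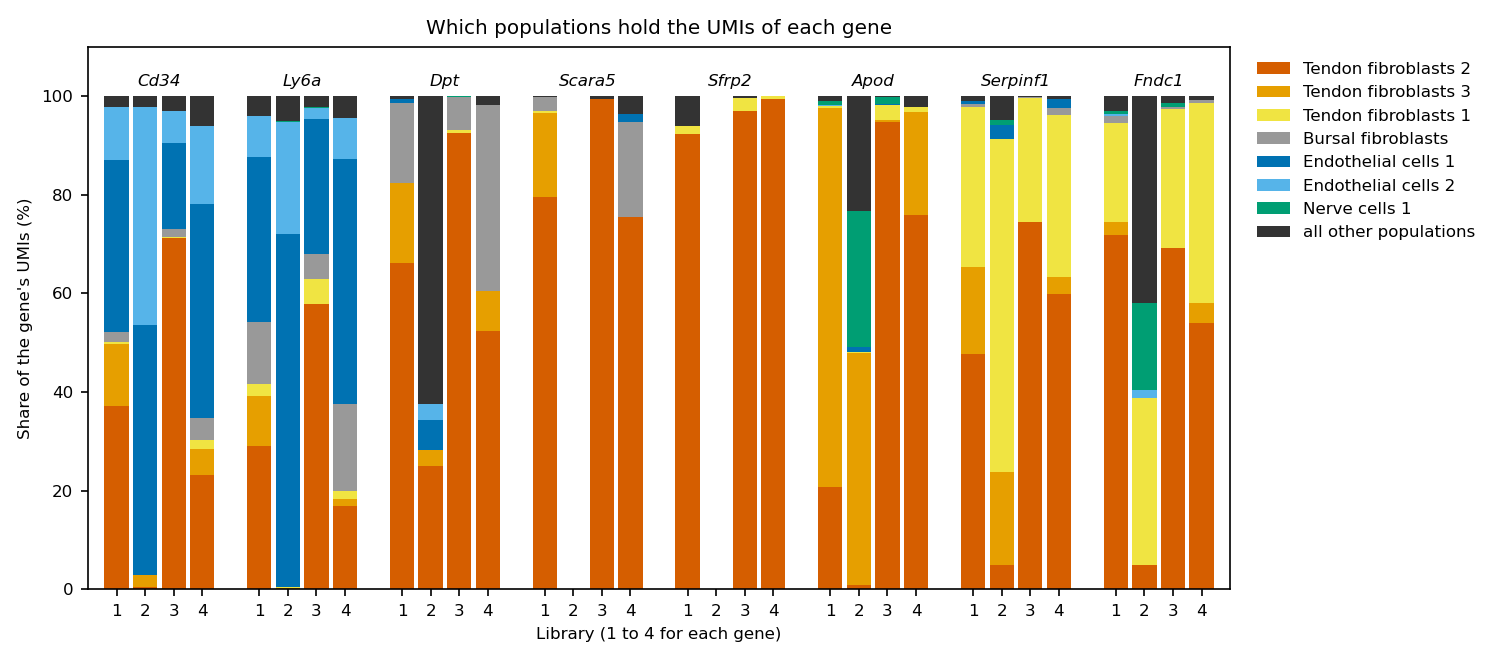
Share of each gene's UMIs (vertical axis, percent) held by the coloured populations in each of the 4 libraries (stacked bars; no bar for Scara5 and Sfrp2 in library 2, where they are at 0). Endothelial cells 1 and 2 hold a large part of Cd34 and Ly6a in every library, and over the libraries together tendon fibroblasts 2 hold 97.2% of Sfrp2 and 83.8% of Scara5.

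Scara5, the third surface gene, was found mainly in fibroblasts. It stood at 489, 186 and 346 CPM in tendon fibroblasts 2 of libraries 1, 3 and 4, with a mean of 341 ± 152 CPM (SD, n = 3), and at 277 CPM in tendon fibroblasts 3 of library 1. Tendon fibroblasts 1 had 2 Scara5 UMIs in 173 cells, both in library 1. Bursal fibroblasts had 22.0, 0 and 78.3 CPM in libraries 1, 3 and 4, and no other population had a mean above 5.02 CPM. Of its 698 UMIs, 83.8% were in tendon fibroblasts 2. The table lists Scara5 and Sfrp2 at 0 throughout library 2, where tendon fibroblasts 2 had 2 cells.

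Among the matrix genes, Dpt was high in 3 fibroblast populations and nearly missing in tendon fibroblasts 1. It stood at 1021, 902 and 725 CPM in tendon fibroblasts 2 of libraries 1, 3 and 4 (mean 883 ± 149 CPM, SD, n = 3). It stood at 662 CPM in tendon fibroblasts 3 of library 1 and at 330, 548 and 463 CPM in bursal fibroblasts of libraries 1, 3 and 4. In tendon fibroblasts 1 the values were 1.59, 0, 8.09 and 0 CPM in libraries 1 to 4. The lowest library of tendon fibroblasts 2 was above the highest of the bursal fibroblasts, and tendon fibroblasts 3 fell between them.

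Fndc1 and Serpinf1 were shared by tendon fibroblasts 1 and 2. Fndc1 stood at 841, 607 and 644 CPM in tendon fibroblasts 2 of libraries 1, 3 and 4 (mean 698 ± 126 CPM, SD, n = 3) and at 294, 164, 288 and 227 CPM in tendon fibroblasts 1 of libraries 1 to 4 (mean 243 ± 61.1 CPM, SD, n = 4). Its level in tendon fibroblasts 3 was 77.6 CPM in library 1, below every library of tendon fibroblasts 1. Nerve cells 1, a population with markers of Schwann cells, the glia of nerves, had 83.4, 62.5 and 98.0 CPM in libraries 1 to 3. Serpinf1 stood at 2079, 4278 and 2731 CPM in tendon fibroblasts 2 of libraries 1, 3 and 4 (mean 3029 ± 1130 CPM, SD, n = 3) and at 1754, 1094, 1670 and 706 CPM in tendon fibroblasts 1 of libraries 1 to 4 (mean 1306 ± 496 CPM, SD, n = 4). It reached 2032 CPM in tendon fibroblasts 3 of library 1. The bursal fibroblasts, at 70.0 ± 43.2 CPM (SD, n = 3), lay far below the 3 tendon fibroblast populations in Serpinf1, while in Dpt they lay above tendon fibroblasts 1.

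Apod had its highest level in tendon fibroblasts 3. It stood at 7419 CPM in the 45 such cells of library 1, with an exact Poisson 95% interval of 7112 to 7735 CPM that covers counting error only. The few cells of this population in the other libraries, 3, 1 and 2 cells, gave 8394, 572 and 1443 CPM. In tendon fibroblasts 2 it stood at 763, 1546 and 1345 CPM in libraries 1, 3 and 4 (mean 1218 ± 407 CPM, SD, n = 3). The nerve populations also had Apod, with 433, 909 and 294 CPM in nerve cells 1 of libraries 1 to 3. Its mean was 23.4 ± 24.5 CPM in tendon fibroblasts 1 (SD, n = 4), and bursal fibroblasts had 3 UMIs in 40 cells.

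Sfrp2 was found mainly in tendon fibroblasts 2 and was uneven between the libraries there. That population held 97.2% of its 531 UMIs. The levels were 78.1, 344 and 1281 CPM in libraries 1, 3 and 4, which gives a mean of 568 ± 632 CPM (SD, n = 3), an SD larger than the mean. Library 4 sets this mean: without it the mean is 211 CPM. Of the 159 Sfrp2 UMIs in the 9 tendon fibroblasts 2 of library 4, 2 cells held 108. A UMI was found in 12 of 67 cells of library 1, 33 of 78 of library 3 and 4 of 9 of library 4. Tendon fibroblasts 3 and bursal fibroblasts had no Sfrp2 UMI, which allows up to 8.12 and 3.61 CPM, and endothelial cells 1 had none, which allows up to 1.51 CPM. Tendon fibroblasts 3, which resembled tendon fibroblasts 2 in Cd34, Ly6a and Scara5, thus had no detected Sfrp2.

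**Figure D2:**
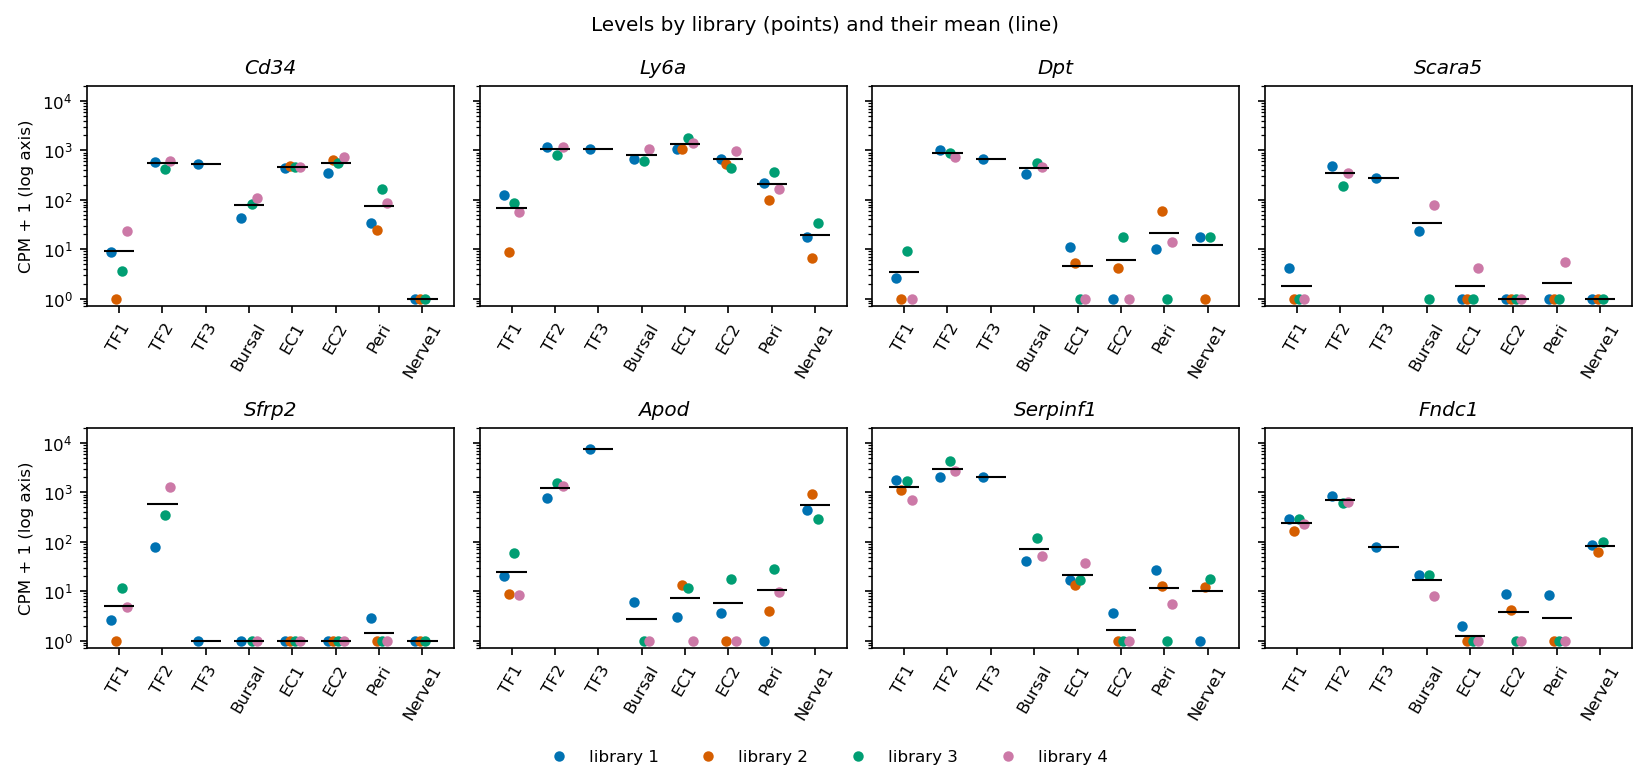
Level of each gene (CPM + 1, logarithmic axis) in tendon fibroblasts (TF), bursal fibroblasts, endothelial cells (EC), pericytes and nerve cells 1, with a point for each library of 5 or more cells and a line at their mean. The points of tendon fibroblasts 2 lie above those of tendon fibroblasts 1, which is a description only, as the genes were chosen for their level in tendon fibroblasts 2. The 3 points of Sfrp2 in tendon fibroblasts 2 spread from 78.1 to 1281 CPM.

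**Figure D3:**
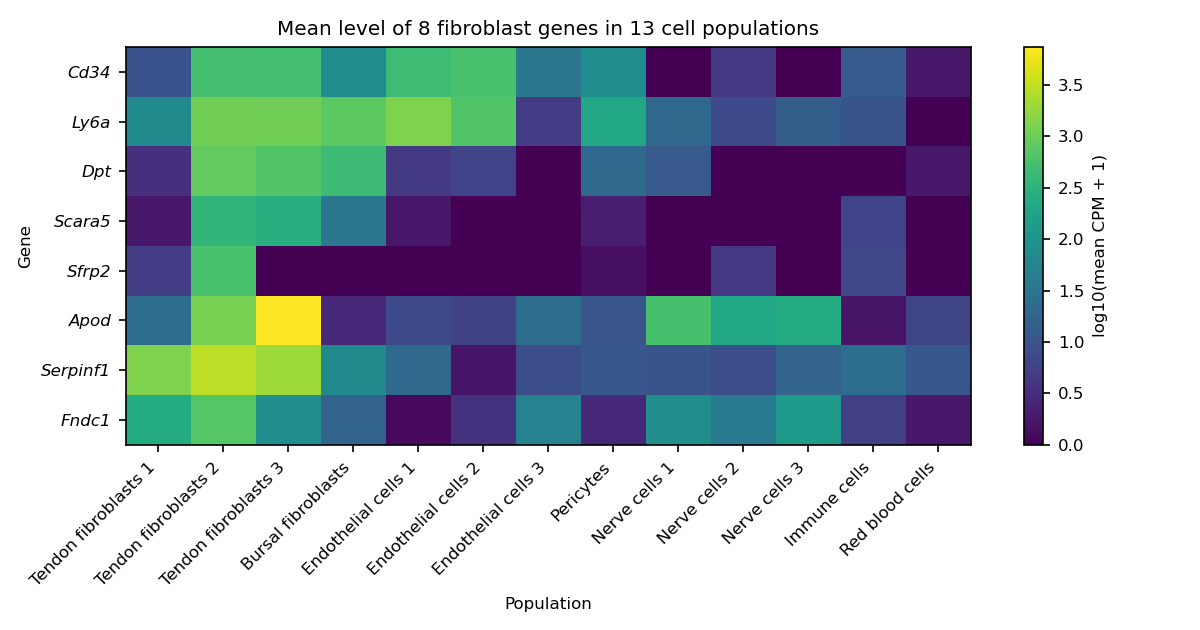
Mean level of the 8 genes in the 13 populations, as log10 of the mean CPM + 1 (colour). Cd34 and Ly6a are high in tendon fibroblasts 2 and 3 and in endothelial cells 1 and 2, Dpt and Ly6a also in bursal fibroblasts, and Apod also in nerve cells.

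Levels summed over a population do not say how many of its cells carry a gene. Each cell was therefore thinned to 2400 UMIs, and 114 shallower cells were left out. A Serpinf1 UMI was then found in 95.9% of tendon fibroblasts 2, Dpt in 73.6%, Fndc1 in 71.6%, Ly6a in 67.6%, Apod in 63.5%, Cd34 in 54.1%, Scara5 in 39.9% and Sfrp2 in 22.3%. Unthinned, the shares were 95.5%, 87.2%, 87.8%, 76.9%, 83.3%, 73.1%, 56.4% and 31.4% in the same order. In immune cells, which served as background, the thinned share was at most 2.3% for any of the 8 genes and the unthinned share at most 10.9%, which is that of Serpinf1. The median depth was 10662 UMIs in tendon fibroblasts 2 and 7108.5 in immune cells.

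In tendon fibroblasts 1, with a median depth of 8824 UMIs, the thinned share was 71.4% for Serpinf1, 41.6% for Fndc1 and 18.0% for Ly6a. It was at most 4.35% for each of the other 5 genes, and Scara5 was found in 0 of 161 thinned cells, which allows up to 1.86% of cells with a UMI at this depth, and in 1 of 173 unthinned cells. Tendon fibroblasts 3 had Cd34 in 78.3% of thinned cells and Sfrp2 in 0 of 46. In endothelial cells 1, Ly6a was found in 81.8% and Cd34 in 61.9% of thinned cells. In bursal fibroblasts, Ly6a was found in 73.0%, Dpt in 48.6% and Cd34 in 10.8%.

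Counted together, tendon fibroblasts 2 had a median of 5 of the 8 genes per thinned cell. Of 148 cells, 94 (63.5%) had 5 or more, and none had 0. In tendon fibroblasts 3 the median was 4.5 and 23 of 46 cells had 5 or more. No thinned cell of the other 11 populations had 5 or more of the genes, and the median was 2 in bursal fibroblasts and in endothelial cells 1 and 2, and 1 in tendon fibroblasts 1. Unthinned, 126 of 156 tendon fibroblasts 2 and 35 of 51 tendon fibroblasts 3 had 5 or more. So did 5 of 173 tendon fibroblasts 1, 4 of 40 bursal fibroblasts, 1 of 107 pericytes and 1 of 92 immune cells. Since the genes were chosen for their level in tendon fibroblasts 2, these counts describe the choice as well as the cells.

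Co-expression within tendon fibroblasts 2 was described by Spearman's rho of the thinned counts over the cells of a library, in 63, 75 and 8 cells of libraries 1, 3 and 4. Cells of a library share their source and are not replicates, so rho is given without a p. The median over the 28 pairs of genes of the mean rho was 0.077, and 19 of 28 pairs were above 0. In the main setting, the highest mean rho of a pair was that of Cd34 and Scara5, 0.47, followed by Ly6a and Dpt, 0.36. For Cd34 and Scara5, Spearman's rho was 0.45, 0.42 and 0.54 in libraries 1, 3 and 4, and 30.8% of the 146 cells had both, against 23.8% given by the product of the shares within each library. For Cd34 and Ly6a it was 0.21, 0.54 and 0.30, and for Ly6a and Scara5 it was 0.26, 0.20 and 0.56. Ly6a and Dpt had 0.05, 0.50 and 0.54, so that this pair was near 0 in library 1. Which pair had the highest mean rho depended on the setting. At 5000 UMIs per cell it was Cd34 and Ly6a, at 0.66, above Cd34 and Scara5 at 0.55. Without library 1 it was Ly6a and Dpt, at 0.52, above Cd34 and Scara5 at 0.48.

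The secreted genes Apod and Serpinf1 formed another pair above 0, with rho of 0.51, 0.20 and 0.30 in libraries 1, 3 and 4. Sfrp2 and Scara5 had the lowest rho of the 28 pairs, -0.24, -0.11 and -0.44. Both were found in 6 of 146 cells, or 4.11%, against 8.05% given by the product. At 5000 UMIs per cell the sign of this pair in library 3 was the opposite, 0.17, with -0.31 and -0.75 in libraries 1 and 4. The values for this pair are those of sparse counts.

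The genes differed in how they went with transcripts of the tendon matrix in the same cells. Serpinf1 and Col1a1, the main fibrillar collagen chain of tendon, had rho of 0.49, 0.57 and 0.73 in libraries 1, 3 and 4. Serpinf1 and Tnmd, the tendon marker tenomodulin, had 0.56, 0.28 and 0.63. Ly6a and Fmod, which encodes the collagen-binding proteoglycan fibromodulin, had -0.40, -0.41 and -0.43. Dpt and Scara5 were likewise below 0 with Fmod, at a mean rho of -0.39 and -0.36. Dpt was above 0 with Col3a1, the type III collagen chain, at 0.35, 0.42 and 0.64. In the cells of tendon fibroblasts 2, Serpinf1 thus went with Col1a1 and Tnmd, and Ly6a, Dpt and Scara5 were lower where Fmod was higher.

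**Figure D4:**
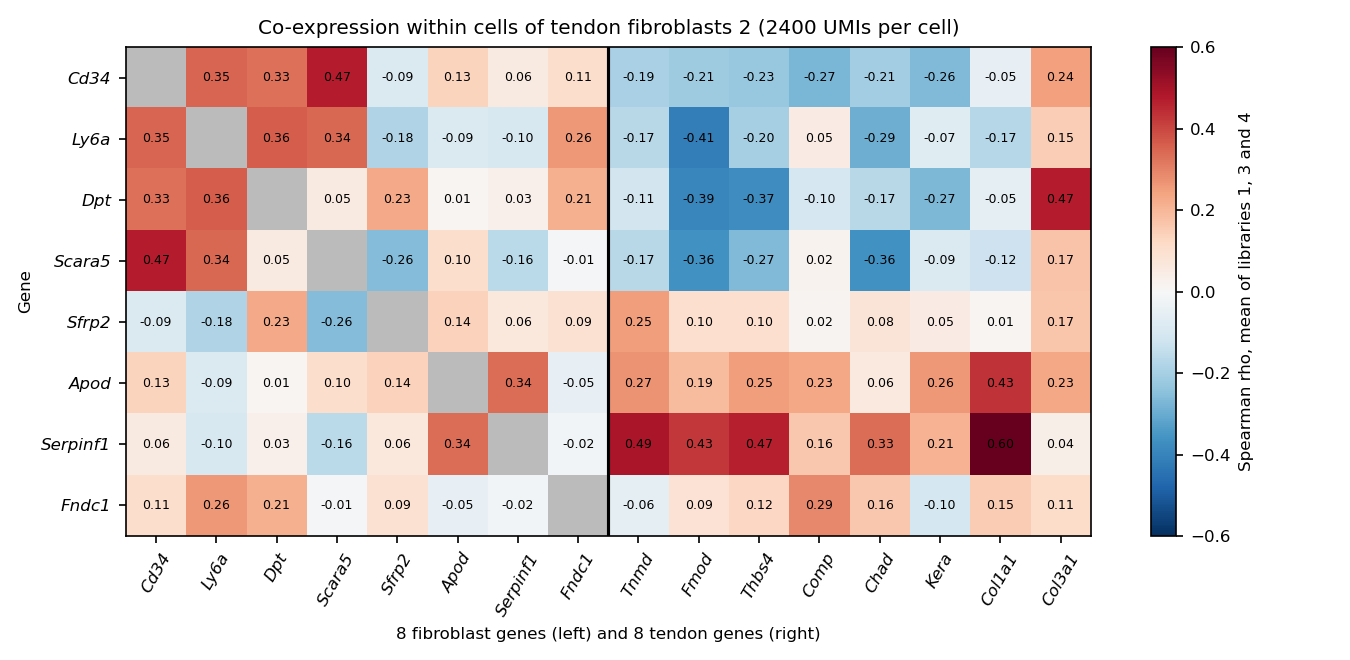
Mean over libraries of Spearman's rho between thinned counts of pairs of the 8 genes, and of the 8 genes with 8 tendon genes, in 146 cells of tendon fibroblasts 2 (colour from negative to positive). Cd34 with Scara5 has the highest value shown among the 28 pairs of the 8 genes, 0.47, and Scara5 with Sfrp2 the lowest, -0.26. At 5000 UMIs per cell, which is not drawn, Cd34 with Ly6a has the highest value, 0.66.

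In endothelial cells 1, Spearman's rho of Cd34 and Ly6a was -0.07, -0.05, 0.25 and 0.16 in libraries 1 to 4, and 51.1% of thinned cells had both, against 50.5% given by the product. In endothelial cells 2 it was 0.29, 0.33, -0.30 and 0.62. The sign thus differed between libraries in both populations. In 40 tendon fibroblasts 3 of library 1, Cd34 and Ly6a had a rho of 0.35, and Dpt and Apod had -0.56. Whether rho differs between the populations was not tested.

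Differences between populations were tested on sums of UMIs per library and population with edgeR's quasi-likelihood test, with the library as a block and Benjamini-Hochberg adjustment over all genes tested, at an adjusted p of 0.05. Because the authors' population names rest on these same cells and genes, such a test describes how named populations differ and not whether they exist. Nothing in the labels says that libraries are separate animals, so the p-values measure the spread between these libraries, which may be technical. The contrast of tendon fibroblasts 1 with 2 was used to choose the 8 genes and is reported below only for other genes.

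Endothelial cells 1 and 2 differed in Ly6a. Ly6a stood at 1040, 1083, 1758 and 1396 CPM in endothelial cells 1 of libraries 1 to 4, and at 680.5, 521, 437 and 986 CPM in endothelial cells 2. The values of endothelial cells 1 were above those of endothelial cells 2 in 4 of 4 libraries, and the groups did not overlap. The log2 fold change was 0.90 ± 0.20 (SE), with an adjusted p of 0.00325 in edgeR's test. Cd34 stood at 429, 488, 464 and 467 CPM in endothelial cells 1 and at 348, 644, 555 and 716 CPM in endothelial cells 2. Its log2 fold change of -0.29 ± 0.18 (SE) did not pass (edgeR, adjusted p = 0.327), and it turned to 0.016 when cells with 2 or more UMIs of another class's markers were left out. Of the 8 genes only these 2 had enough counts to be tested, and 1 of 2 passed. Of all 5126 genes tested 18.2% did: 7.74% with more in endothelial cells 1 and 10.5% with more in endothelial cells 2.

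Against pericytes, both genes were higher in endothelial cells 1. Cd34 stood at 32.7, 23.3, 161 and 83.9 CPM in pericytes of libraries 1 to 4, and Ly6a at 218, 99.2, 363 and 163 CPM. All of these are below the values of endothelial cells 1. The log2 fold change was 2.94 ± 0.37 (SE) for Cd34 and 2.63 ± 0.23 (SE) for Ly6a, with adjusted p of 1.5e-04 and 1.9e-05 in edgeR's test, each higher in 4 of 4 libraries. Both of the 2 members tested passed. Of all 5493 genes tested 34.2% did, 17.6% higher in endothelial cells 1 and 16.6% higher in pericytes. The 6 endothelial markers summed to 570, 388, 1761 and 1073 CPM in the pericytes of libraries 1 to 4. Library 3 was highest and library 2 lowest in these markers as in Cd34 and Ly6a. Of the 107 pericytes, 22 had 2 or more UMIs of markers of another class. In the other 85 pericytes Cd34 had 2 UMIs and Ly6a 4 UMIs, against 57 and 218 in all pericytes, so that most pericyte UMIs of both genes were in those 22 cells. Without such cells in either population the fitted log2 fold changes were 7.22 and 7.60, values that depend on the few UMIs left, and with cells thinned to 2400 UMIs they were 4.17 and 3.39.

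Tendon fibroblasts 1 and bursal fibroblasts were told apart by the genes in both directions. Ly6a stood at 673, 608 and 1082 CPM in bursal fibroblasts of libraries 1, 3 and 4, above every library of tendon fibroblasts 1, and Dpt did so as well with the values given above. The log2 fold change of Ly6a, tendon fibroblasts 1 over bursal fibroblasts, was -2.93 ± 0.36 (SE), with an adjusted p of 5.6e-05 in edgeR's test. In the other direction, Serpinf1 was higher in tendon fibroblasts 1. It stood at 40.6, 119.6 and 49.8 CPM in bursal fibroblasts, with a log2 fold change of 4.61 ± 0.40 (SE) and an adjusted p of 2.5e-06 in edgeR's test. Both genes had their direction in 3 of 3 libraries. Cd34, Dpt and Fndc1 were tested too and passed, but no library of their lower population reached the filter on low counts, so they were in the test only through the other population and had to differ. Cd34 had 13 UMIs in tendon fibroblasts 1 of these libraries, against 48 in the bursal population, at 42.3, 79.7 and 106.8 CPM, and its adjusted p in edgeR's test was 0.0689 without library 1. Dpt had 7 and 315 UMIs. Fndc1 had 459 UMIs in tendon fibroblasts 1, against 15 in the bursal population, at 20.3, 19.9 and 7.12 CPM. Of all 5186 genes tested 15% passed, 8.99% higher in tendon fibroblasts 1 and 5.98% higher in bursal fibroblasts. Bursal fibroblasts had 30, 5 and 5 cells in libraries 1, 3 and 4.

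A list of 37 other genes known from interstitial and progenitor fibroblasts was counted in the same fits, and 36 were found. For tendon fibroblasts 1 against 2, 30 could be tested and 16 passed, 15 of them higher in tendon fibroblasts 2. Of all 7043 genes tested 7.97% passed: 3.78% were higher in tendon fibroblasts 2, and 4.19% were lower there. The median log2 fold change of the 30 was -1.31, against 0.003 for all genes tested. The list was chosen with earlier results of these data known, and 5 of the 15 genes (Cd248, Col14a1, Entpd2, Osr2 and Penk) reached the filter on low counts only through tendon fibroblasts 2 and had to differ, so these counts and the median are a description. Cd248, which encodes the surface protein endosialin of stromal cells, had 1 UMI in tendon fibroblasts 1 and 311 in tendon fibroblasts 2, a ratio of pooled CPM of 288 with an exact 95% interval of 51.3 to 11415. Col14a1, a fibril-associated collagen gene, had 3 and 558 UMIs, a ratio of 172 (58.7 to 838). Entpd2, Penk and Osr2 had 5, 7 and 6 UMIs in tendon fibroblasts 1 and 127, 118 and 85 in tendon fibroblasts 2. Further genes higher in tendon fibroblasts 2 were Cxcl12, a chemokine of stromal cells, at a log2 fold change of -6.50 ± 0.29 (SE), and Mfap5, a microfibril protein, at -5.13 ± 0.39. The complement gene C3 had -3.89 ± 0.50 and the growth factor gene Igf1 -3.43 ± 0.25. The proteoglycan gene Lum (-2.26 ± 0.43), Clec3b, which encodes tetranectin (-2.0 ± 0.30), and the actin regulator gene Gsn (-1.68 ± 0.29) completed the 12 genes named by fold. Thy1, Pdgfra and Ly6c1 also passed, at -1.57, -1.29 and -1.19. Cxcl12 and Mfap5 were uneven between the libraries of tendon fibroblasts 2, at 1108 ± 834 and 462 ± 551 CPM (SD, n = 3). Both were higher in tendon fibroblasts 2 than in tendon fibroblasts 1 in 3 of 3 libraries. Leaving aside the 5 genes that had to differ, the adjusted p of the others among these 15 ranged from 1.1e-05 (Cxcl12) to 0.0170 (Thy1) in edgeR's test.

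Pcolce2, which encodes an enhancer of procollagen processing, was the gene of the list that was higher in tendon fibroblasts 1, at 2.53 ± 0.57 (SE; edgeR, adjusted p = 0.0246). The other 14 did not pass. Among them were Procr (-1.09 ± 0.52), Cd55 (-0.97 ± 0.48), Fbn1 (-1.32 ± 0.42), Sema3c (0.03 ± 0.25), Igfbp6 (0.25 ± 0.22) and Anxa3 (0.52 ± 0.45), which are markers of progenitor fibroblasts of loose tissue in other organs. The list was thus not uniform. Its genes Pi16, Dpp4, Efemp1, Tcf21, Osr1, Gli1 and Twist2 were not among those tested in this comparison. In tendon fibroblasts 1 against bursal fibroblasts, 15 of 23 tested genes of the list passed, 11 higher in bursal fibroblasts and 4 in tendon fibroblasts 1, where 15% of all genes passed. Of these 15, 4 (Cd248, Col15a1, Entpd2 and Cxcl12) reached the filter on low counts only through 1 of the 2 populations and had to differ. In endothelial cells 1 against 2, 5 of 10 passed, 2 higher in endothelial cells 1 and 3 in endothelial cells 2, where 18.2% of all genes passed. In endothelial cells 1 against pericytes, 10 of 12 passed, 5 in each direction, where 34.2% of all genes passed. Of these 10, 3 (Procr, Tnxb and Prrx1) likewise reached the filter only through 1 of the 2 populations and had to differ. These counts too are a description.

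**Figure D5:**
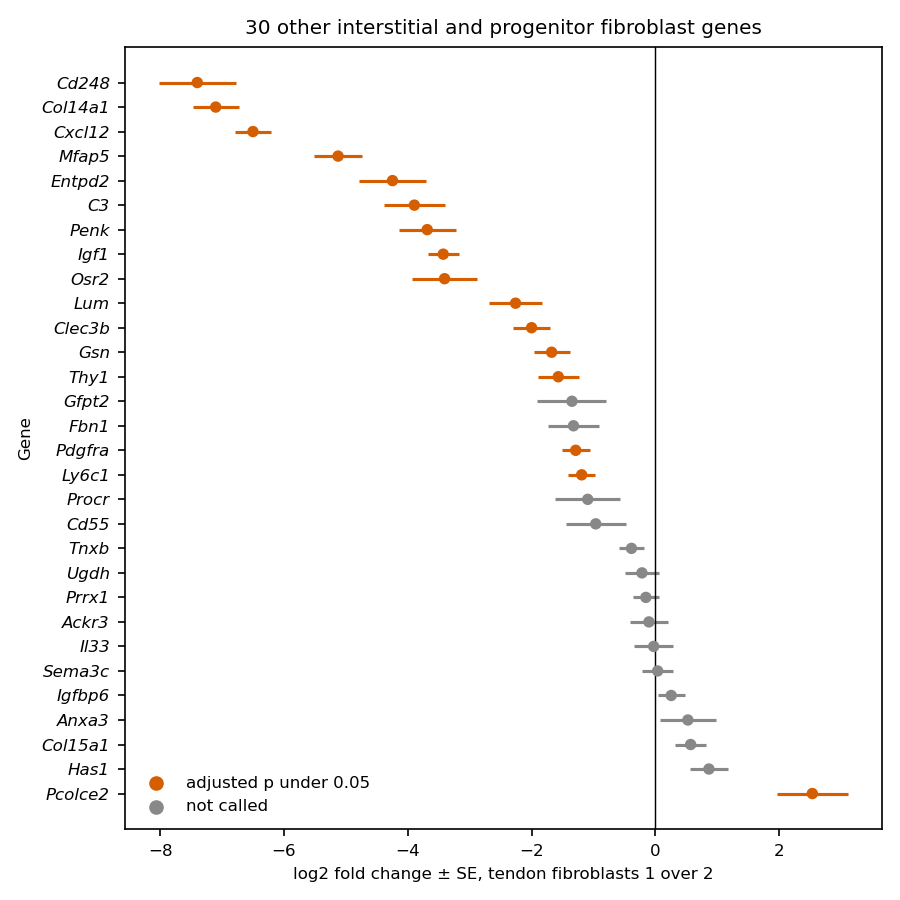
Fitted log2 fold change of tendon fibroblasts 1 over 2 (horizontal axis; points with SE bars) for the 30 tested genes of the list. Genes with an adjusted p under 0.05 in edgeR's test are orange: 15 lie left of 0, from -7.40 (Cd248, whose fitted value rests on 1 UMI in tendon fibroblasts 1) to -1.19 (Ly6c1), and Pcolce2 lies right of it. Of the 15, Cd248, Col14a1, Entpd2, Osr2 and Penk reached the filter on low counts only through tendon fibroblasts 2 and had to differ.

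The genes whose pattern over the 13 populations was most like that of each member were found by Pearson's r of log2(CPM + 1), among 7293 genes with 50 or more CPM in some population. These values are descriptions over 13 populations that share libraries. For Cd34 they were Ace (0.92), Fat4 (0.90) and Ebf1 (0.89), and for Ly6a Papss2 (0.91), Meox2 (0.90) and Ly6c1 (0.89). For Dpt they were Cd248 (0.94), Osr2 (0.94) and Adgrd1 (0.93), and for Scara5 Sfrp4 (0.96), Osr2 (0.94) and Svep1 (0.93). Osr2 was thus near both Dpt and Scara5, which had an r of 0.88 with each other. For Serpinf1 they were Itgbl1 (0.96), Clec11a (0.95) and Dcn (0.94), the last the gene of the collagen-binding proteoglycan decorin. For Apod they were Chrdl1 (0.91), Galnt17 (0.88) and Lama2 (0.87). For Fndc1 they were Zfhx4 (0.90), Dkk3 (0.86) and 9330159F19Rik (0.85). For Sfrp2 they were Gm26771 (0.93), Egfl6 (0.88) and Gm26562 (0.85). Among the members themselves, Cd34 and Ly6a had an r of 0.84 and Apod and Fndc1 0.71, while Cd34 and Apod had 0.01.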

How the data were processed

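Achilles tendon cells were profiled in 4 libraries with version 3 of the 10x Genomics 3-prime chemistry, per the labels. Cell Ranger, Seurat 2.3.4, R 3.5.2 and the build mm10 are named in the submitters' processing notes, and their settings are not given in the sources used here. The authors deposited raw UMI counts per gene and cell, which were used for every result. They also deposited normalized values on a natural log scale, which match values recomputed from the counts to within 5.0e-10 for the 8 genes and were used only for that check. Of 15750 entries, 4 with a repeated gene name (0.0186% of UMIs) were left out.

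The 8 genes and the lists were chosen with earlier results of these data known. Populations were taken from the authors' annotation, no cell was removed and no doublet caller was run. Of 1191 cells, 429 had 2 or more UMIs of another class's markers, and leaving these out was an alternative. UMIs were summed per library and population (5 or more cells) and tested where 3 or more libraries had both sums, in R 4.3.3 with edgeR 4.0.16 (quasi-likelihood test, TMM, filterByExpr by population, library as a block, Benjamini-Hochberg). The filter and the use of whole library totals were settled after other forms had been run on these data, and both other forms are among the alternatives. DESeq2 1.42.0 was another alternative. The tests were tried on simulated data. Depth was 5603366, 2252390, 2269014 and 1375111 UMIs in libraries 1 to 4. Levels are means ± SD over libraries. A count of 0 was bounded with a floor of 3 counts. Intervals and floors cover counting error only.

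The genes named are the 8 members, for each the 3 genes most like it over the populations, up to 12 genes of the list in each direction by fold, and 9 relatives of the members. Some further genes of the list were named after their values were seen. Promoters are from RefSeq and positions from GENCODE. The rest was computed with scipy 1.17.1, pandas 2.3.3 and numpy 2.4.6 and drawn with matplotlib 3.10.9, under python 3.11.15.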

Additional observations from a re-analysis of the deposited data

Results flagged for a closer look

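Of 22 sets of 4 library values, 3 held a value whose gap to its nearest neighbour took more of the whole range than Dixon's 95% critical value, which chance exceeds in about 1 of 20 sets. Serpinf1 in endothelial cells 1 stood at 35.5 CPM (11 UMIs) in library 4, against 12.5 to 15.8 CPM in the other libraries. Serpinf1 in red blood cells stood at 37.8 CPM (11 UMIs) in library 1, against 0 to 3.35 CPM. Fndc1 in pericytes stood at 7.26 CPM (4 UMIs) in library 1 and at 0 in the others. All 3 rest on few UMIs, and all are far below the levels of these genes in tendon fibroblasts 2.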

How the results depend on the processing

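Of 229 values recomputed under alternatives, 201 were rated the same. A fold change was so rated if it kept its direction and side of the threshold, and a level, share or rho if it stayed within the spread. A count of genes was so rated if it stayed within a set ratio of the main count. In all, 1 value reversed: the log2 fold change of Cd34 in endothelial cells 1 over 2, which was 0.016 without the cells that had markers of another class (edgeR, adjusted p = 0.971). For tendon fibroblasts 1 against 2, 561 genes passed. DESeq2 gave 371, no filter 1073 and cells thinned to 2400 UMIs 296, of the 2076 genes then tested, and leaving out 1 library gave 374 to 467. The list's 16 genes became 25 of 36 with no filter and 14 to 17 without 1 library. For endothelial cells 1 against 2 (934), DESeq2 gave 570, thinned cells 296 and leaving out cells with markers of another class 547. Leaving out 1 library gave 488 to 1003, with 618 without library 1 and 488 without library 2. Against pericytes (1879), no filter gave 2918, thinned cells 486 and leaving out 1 library 1312 to 2243. For tendon fibroblasts 1 against bursal fibroblasts (776), DESeq2 gave 503, no filter 1216 and leaving out 1 library 330 to 916, the lowest without library 1, where Cd34 had -2.85 (edgeR, adjusted p = 0.0689). Apart from the number of genes tested or libraries, the cause was not tested.

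Without the replicate block the counts were 550, 880, 1991 and 820, the list had 14, and no member's call changed. Deviations of sums of the same library correlated between -0.03 and 0.12 across genes. Added after seeing the data, a filter by the block design gave 683, 1054, 2290 and 909, and library sizes taken after the filter gave 572, 933, 1877 and 777. In tendon fibroblasts 2 without the 28 of 156 cells that had an endothelial UMI, Cd34 stood at 575 and Ly6a at 1166 CPM. Without the 84 of 156 tendon fibroblasts 2 that had markers of another class, Dpt stood at 1283 CPM there. Without such cells, the log2 fold changes of endothelial cells 1 over pericytes were 7.22 (Cd34) and 7.60 (Ly6a) against 2.94 and 2.63. Leaving out 1 library moved the mean of Sfrp2 to between 211 and 812 CPM.

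Shares of tendon fibroblasts 2 with a UMI, as means over libraries, were higher without thinning for 6 of these 7 genes. From thinned to unthinned they went from 53.7% to 81.6% (Cd34), 67.3% to 81.5% (Ly6a), 74.6% to 87.8% (Dpt), 44.1% to 60.7% (Scara5), 66.3% to 81.7% (Apod), 98.0% to 94.0% (Serpinf1, the exception) and 66.0% to 88.3% (Fndc1). Thinning also left out shallower cells, so the thinned and unthinned shares rest on different cells. In library 4, 8 of 9 unthinned tendon fibroblasts 2 had a Serpinf1 UMI, and 8 cells remained after thinning. At 5000 UMIs Cd34 had 72.8%, Dpt 90.2% and Fndc1 87.0%. The median rho of the 28 pairs ranged from 0.064 to 0.14 without 1 library, the highest without library 3. A minimum of 10 cells could not be run for both fibroblast comparisons, nor thinned cells for the bursal one, nor the cells with markers of another class left out for either, since too few libraries remained.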

Other observations

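Relatives of the members had their own distributions. Podxl, which encodes the Cd34-related sialomucin podocalyxin, stood at 886 ± 193 CPM in endothelial cells 1 and 267 ± 16.8 CPM in endothelial cells 2 (SD, n = 4 libraries each). It had 1 UMI in the 156 tendon fibroblasts 2, where Cd34 had 902. Ly6c1, a neighbour family member of Ly6a, stood at 2667 ± 363 CPM in endothelial cells 1 (SD, n = 4) and 853 ± 189 CPM in tendon fibroblasts 2 (SD, n = 3), and at 169 CPM in tendon fibroblasts 3 of library 1. Ly6e stood at 1426 ± 228 CPM in endothelial cells 1 (SD, n = 4) and 91.6 ± 37.8 CPM in tendon fibroblasts 2 (SD, n = 3). Genes of the Ly6 family are close copies, and how reads that fit several of them were counted is not given in the sources used here.

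Other secreted Wnt modulators were also found outside tendon fibroblasts 2. Sfrp4 stood at 224 ± 192 CPM in tendon fibroblasts 2 (SD, n = 3) and at 108 CPM in tendon fibroblasts 3 of library 1, where Sfrp2 had no UMI. Frzb stood at 80.6 ± 54.6 CPM in tendon fibroblasts 1 (SD, n = 4), at 105 ± 36.2 CPM in nerve cells 1 (SD, n = 3) and at 3.68 ± 3.31 CPM in tendon fibroblasts 2 (SD, n = 3). Scara3, of the same receptor family as Scara5, stood at 920 ± 189 CPM in tendon fibroblasts 1 (SD, n = 4), 937 ± 305 CPM in bursal fibroblasts (SD, n = 3) and 385 ± 64.7 CPM in tendon fibroblasts 2 (SD, n = 3). Scara5 was highest in tendon fibroblasts 2 among these populations, and Scara3 was lowest there.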
